A study of Mus musculus with 24 samples.

Results

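F3, which encodes tissue factor (CD142), and 6 further genes used as markers of F3-positive stromal cells in fat (Clec11a, Fmo2, Mgp, Gdf10, Cygb and Abcg1) were followed across 24 RNA sequencing libraries of mouse adipose progenitors. The 7 genes were taken by symbol from a table of 27179 genes, and all 7 were among the 14517 genes that reached a value of 10 in 3 libraries or more. PDGFRb-positive cells had been isolated by flow cytometry from white fat of C57BL/6 mice, and each of 8 groups had 3 libraries. From gonadal fat the groups were APC and FIP cells of females (F_APC, F_FIP) and of males (M_APC, M_FIP). From inguinal fat they were DPP4_neg and DPP4_pos cells of females (F_DPP4_neg, F_DPP4_pos) and of males (M_DPP4_neg, M_DPP4_pos). The labels name no treatment and no transgene. Ages, the gates that separated FIP from APC, and whether the 3 libraries of a group came from separate animals are not stated in the sources used here. A p-value therefore reflects only how far these libraries scatter, a scatter that may be technical.

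Tissue factor is the cell surface receptor for clotting factor VII, and the complex of both starts the extrinsic clotting cascade and can signal through protease-activated receptors. In the stroma of fat, surface CD142 marks a subset of progenitors. It has been described as restraining adipogenesis of its neighbours in some studies and as a committed preadipocyte in others. The other members are secreted proteins (Gdf10, Clec11a, Mgp), enzymes or haem proteins inside the cell (Fmo2, Cygb) and a membrane transporter (Abcg1). In bulk libraries such as these, fewer cells of a type and less RNA per cell cannot be told apart.

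Values are normalised reads, that is reads divided by 1 size factor per library, and the libraries held 9152470 to 18221692 reads. Pdgfrb stood at 1729.7 to 6277 and Pdgfra at 6232 to 19533 normalised reads over the 24 libraries, and Ptprc, the pan-leukocyte gene, at 0 to 96.2. Dpp4 stood at 14883 to 20848 in the DPP4_pos libraries of both sexes and at 235 to 258 in M_DPP4_neg. In gonadal libraries it stood at 1060 to 1461 in F_APC, 160 to 218 in M_APC, 7911 to 9371 in F_FIP and 4483 to 5096 in M_FIP. Female APC was thus above male APC in Dpp4, and the part of this in the members was not tested. Among the DPP4_neg libraries those of females stood apart, although their range of Dpp4 overlapped that of F_APC. Their Dpp4 ranged from 1150.2 to 4213, highest in replicate 1, and their Epcam, a gene of epithelial cells, from 803 to 1913, against 30.0 to 61.5 in F_DPP4_pos and at most 5.11 in the male inguinal libraries. For the Dpp4 level, log2 fold changes of members called in comparisons that use F_DPP4_neg are given without its replicate 1 as well. Epcam was at least 803 in all 3 libraries, so leaving out replicate 1 does not remove the epithelial transcripts. Correlations over libraries and counts of other gene lists were not recomputed without replicate 1.

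F3 (gene ID 14066) lies on the plus strand at chr3:121723537-121735052 of GRCm38.p6, with 2527 bases of exon. In gonadal females F3 stood at 2669, 2525 and 2601 normalised reads in the 3 F_APC libraries and at 1909, 2036 and 1972 in F_FIP. In gonadal males it stood at 5031, 4487 and 4708 in M_APC and at 3478, 3083 and 3034 in M_FIP. Every APC library was above every FIP library of the same sex, and every male gonadal library above every female one. Such separation of groups was common. From APC to FIP, 52.1% of all genes in females and 52.7% in males had no overlap between the groups. Between the sexes the share was 53.9% in APC and 56.6% in FIP. From DPP4_neg to DPP4_pos it was 56.3% in females and 54.0% in males. Over all comparisons between groups it ran from 52.1% to 72.9%, so a lack of overlap alone does not set any member apart. In inguinal females F3 stood at 1228, 1682 and 1514 in F_DPP4_neg and at 472, 524 and 497 in F_DPP4_pos. In inguinal males the values were 8137, 7513 and 7226 in M_DPP4_neg and 2026, 1951 and 1964 in M_DPP4_pos. DPP4_neg was thus above DPP4_pos in each sex with no overlap, and the highest and lowest of the 8 groups were both inguinal.

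The group means of F3 ran from 7625 ± 466 (SD, n = 3) in M_DPP4_neg through M_APC, M_FIP, F_APC, M_DPP4_pos, F_FIP and F_DPP4_neg to 497 ± 25.8 in F_DPP4_pos, a ratio of 15.3. Of the 7 pairs of neighbours in that order, M_DPP4_pos and F_FIP were the 1 pair whose libraries overlapped. F3 fell from APC to FIP with a log2 fold change of -0.40 ± 0.08 (SE) in females (limma adjusted p = 0.000411) and -0.57 ± 0.08 in males (limma adjusted p = 4.68e-06). From DPP4_neg to DPP4_pos the log2 fold change was -1.56 ± 0.08 in females (limma adjusted p = 1.54e-13) and -1.94 ± 0.08 in males (limma adjusted p = 5.53e-16). Without F_DPP4_neg replicate 1, the library with the lowest F3 and the highest Dpp4 of its group, the female value was -1.68.

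Promoter sequence is shown for F3 and Gdf10, whose levels moved most closely together over the libraries, and for Clec11a, whose order of groups differed. Each is the 250 bases before the annotated start, 5′ to 3′ on the strand of the gene, from RefSeq on GRCm38.p6, and capitals mark the motifs searched (either strand). The F3 window is chr3:121723287-121723536 (plus strand, 70.0% G or C), the Gdf10 window chr14:33923337-33923586 (plus strand, 78.8%) and the Clec11a window chr7:44306960-44307209 (minus strand, 55.6%).
F3: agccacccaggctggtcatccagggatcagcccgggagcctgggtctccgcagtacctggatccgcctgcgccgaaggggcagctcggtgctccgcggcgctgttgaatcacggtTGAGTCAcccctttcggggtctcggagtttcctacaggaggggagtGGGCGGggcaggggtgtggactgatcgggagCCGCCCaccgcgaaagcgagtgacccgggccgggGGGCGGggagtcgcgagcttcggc
Gdf10: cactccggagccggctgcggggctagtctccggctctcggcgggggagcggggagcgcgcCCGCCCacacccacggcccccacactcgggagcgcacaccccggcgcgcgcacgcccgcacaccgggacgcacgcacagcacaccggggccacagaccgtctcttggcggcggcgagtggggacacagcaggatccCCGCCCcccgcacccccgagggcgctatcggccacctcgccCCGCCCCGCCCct
Clec11a: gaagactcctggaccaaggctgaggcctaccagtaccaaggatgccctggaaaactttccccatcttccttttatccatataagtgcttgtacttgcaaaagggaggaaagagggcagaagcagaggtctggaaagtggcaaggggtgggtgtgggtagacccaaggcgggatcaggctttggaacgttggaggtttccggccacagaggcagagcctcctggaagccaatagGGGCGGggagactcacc

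The F3 window held 1 match to the AP-1 motif TGACTCA, on the minus strand 135 to 129 bases before the start, and 3 to the SP1 motif GGGCGG, 89 to 84, 58 to 53 and 24 to 19 bases before it. Gdf10 held 4 GGGCGG matches, all on the minus strand, 190 to 185, 54 to 49, 13 to 8 and 8 to 3 bases before the start, the last 2 of which share a base. In Clec11a there was 1 GGGCGG match, 17 to 12 bases before the start. Bases shortly after the annotated start were found in the gene's GENCODE transcripts for F3 and Gdf10 but not for Clec11a. The Clec11a positions thus rest on the RefSeq start alone. Fmo2 has 2 promoter entries in the same table, of which 1 held a match to the hypoxia motif ACGTG, 23 to 19 bases before the start, and the other no match. Only the Fmo2 entry with the match had the bases after its start in a transcript. TGACTCA was found in 4.46%, GGGCGG in 32.7% and ACGTG in 16.6% of 32851 promoter windows of this length. The EGR1 motif GCGGGGGCG (2.57% of windows), the TATA box TATAAA (12.4%) and an NF-kB consensus (0.140%) had no match in these windows. A match is a description of the letters, not evidence of binding.

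**Figure D1:**
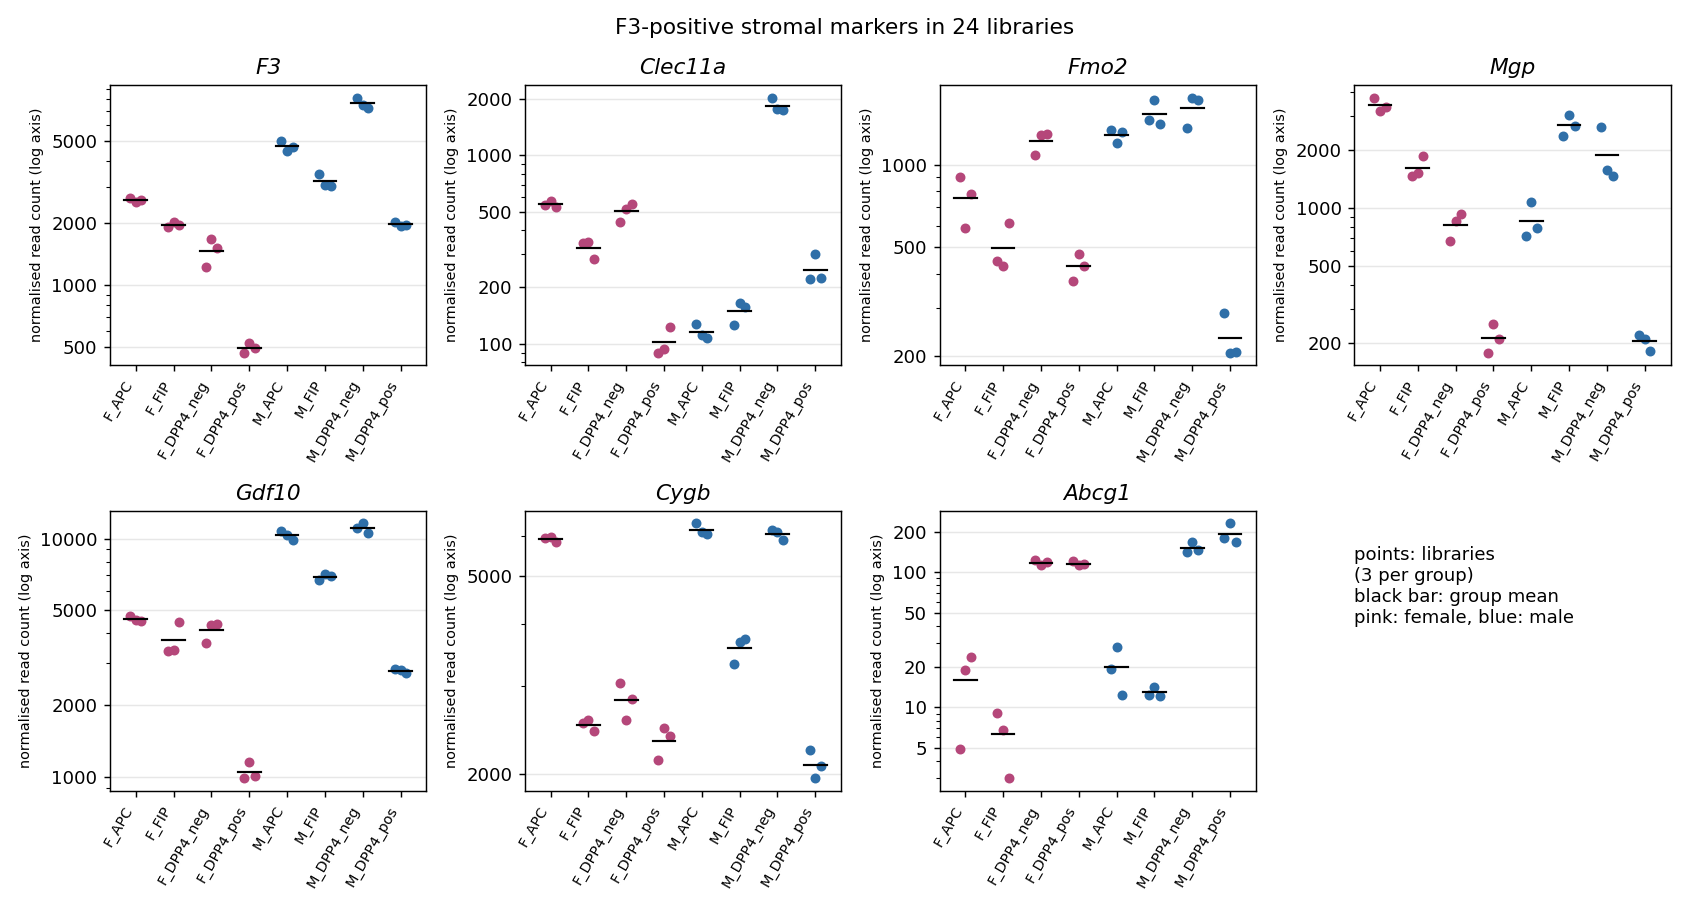
Normalised read count (log axis) of each member in the 24 libraries; points are libraries, black bars are group means, pink is female and blue is male. F3 and Gdf10 follow a like order of groups, highest in M_DPP4_neg and lowest in F_DPP4_pos, while Abcg1 separates inguinal from gonadal libraries in both sexes.

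Gdf10 (gene ID 14560, chr14:33923587-33936514, plus strand) encodes a secreted TGF-beta family ligand related to BMP3. It stood at 4723, 4575 and 4505 normalised reads in F_APC and 3384, 3394 and 4463 in F_FIP. In males it stood at 10754, 10314 and 9849 in M_APC and 6673, 7079 and 6954 in M_FIP. The male groups did not overlap, whereas 1 F_FIP library, replicate 3, lay just under the F_APC libraries. In inguinal cells the values were 3643, 4341 and 4397 in F_DPP4_neg and 987, 1157 and 1006 in F_DPP4_pos. The male values were 11042, 11571 and 10568 in M_DPP4_neg and 2837, 2820.4 and 2722 in M_DPP4_pos. No DPP4_pos library reached a DPP4_neg library of its sex.

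The fall of Gdf10 from DPP4_neg to DPP4_pos was of nearly the same size in females (-1.97 ± 0.09, limma adjusted p = 6.59e-15) and males (-1.98 ± 0.09, limma adjusted p = 1.17e-15). Their difference was -0.01 with a 95% interval of -0.27 to 0.25. From APC to FIP Gdf10 fell in males, with a log2 fold change of -0.58 ± 0.09 (limma adjusted p = 9.17e-06), and in females, with -0.31 ± 0.09 (limma adjusted p = 0.00693). The female call was lost when the 2 groups were fitted alone (adjusted p = 0.0548), without F_FIP replicate 1 (adjusted p = 0.0578) and without F_FIP replicate 2 (adjusted p = 0.0567).

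Clec11a (gene ID 20256, chr7:44303766-44306959, minus strand) encodes a secreted C-type lectin, also called osteolectin, known as a bone-forming growth factor. It stood at 546, 574 and 529.5 normalised reads in F_APC and 341, 346 and 281 in F_FIP. Male gonadal values were lower, 128, 111 and 107 in M_APC and 126, 166 and 157 in M_FIP. The sexes did not overlap in gonadal fat, and here it was the females that were high. In inguinal fat Clec11a stood at 446, 518 and 551 in F_DPP4_neg and 90.0, 94.6 and 123 in F_DPP4_pos. M_DPP4_neg held 2022, 1753 and 1736 and M_DPP4_pos 222, 299 and 222. M_DPP4_neg was above all 21 other libraries, and in both inguinal populations males were above females.

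Clec11a fell from DPP4_neg to DPP4_pos, with a log2 fold change of -2.30 ± 0.13 in females (limma adjusted p = 5.15e-13) and -2.90 ± 0.13 in males (limma adjusted p = 1.73e-15). From APC to FIP it fell in females (-0.77 ± 0.13, limma adjusted p = 3.81e-05). In males it rose by 0.36 with overlapping libraries (limma adjusted p = 0.0323), and the difference between the sexes was 1.14 ± 0.19 (limma adjusted p = 0.000181). The male rise was not called with no filter (adjusted p = 0.0509), with no trend (0.0544) or with the 2 groups fitted alone (0.064). It was also lost without M_APC replicate 2 (0.0891), M_APC replicate 3 (0.114), M_FIP replicate 2 (0.155) or M_FIP replicate 3 (0.103).

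Mgp (gene ID 17313, chr6:136872435-136875823, minus strand) encodes matrix Gla protein, a secreted inhibitor of calcification that depends on vitamin K. It stood at 3725, 3173 and 3338 normalised reads in F_APC and 1459.9, 1514 and 1871 in F_FIP. In males it stood at 720.1, 1075 and 785 in M_APC and 2349.5, 3041 and 2664 in M_FIP. The gonadal order was thus opposite in the sexes, APC above FIP in females and FIP above APC in males, with no overlap in either. Inguinal females held 677, 854 and 931 in F_DPP4_neg and 179, 253 and 209.8 in F_DPP4_pos. Inguinal males held 2615, 1568 and 1462 in M_DPP4_neg and 220.4, 211 and 182 in M_DPP4_pos. Both DPP4_pos groups were low and overlapped each other, and M_DPP4_neg replicate 1 was well above the other 2 libraries of its group.

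From APC to FIP Mgp fell in females (-1.08 ± 0.18, limma adjusted p = 1.85e-05) and rose in males (1.66 ± 0.18, limma adjusted p = 2.69e-08). The difference between these changes was 2.74 ± 0.25 (limma adjusted p = 3.88e-08). From DPP4_neg to DPP4_pos Mgp fell in both sexes, with -1.94 ± 0.18 in females (limma adjusted p = 1.33e-09) and -3.15 ± 0.18 in males (limma adjusted p = 8.02e-14).

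Fmo2 (gene ID 55990, chr1:162874317-162898758, minus strand) encodes a flavin-containing monooxygenase, an enzyme that oxidises nitrogen and sulphur compounds. It stood at 903, 586 and 785 normalised reads in F_APC and 447, 427 and 613 in F_FIP. Male gonadal libraries held 1341, 1202 and 1318 in M_APC and 1456, 1729 and 1414 in M_FIP. The 2 female groups overlapped, and both lay below every male gonadal library. Inguinal females held 1087, 1284 and 1293 in F_DPP4_neg and 377, 473 and 429 in F_DPP4_pos. Inguinal males held 1359.9, 1757 and 1729 in M_DPP4_neg and 288, 206 and 208 in M_DPP4_pos. Both the highest and the lowest group mean of Fmo2 were male and inguinal.

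Fmo2 fell from DPP4_neg to DPP4_pos, with -1.52 ± 0.15 in females (limma adjusted p = 6.84e-09) and -2.79 ± 0.15 in males (limma adjusted p = 4.74e-14). Between APC and FIP it fell in females (-0.61 ± 0.15, limma adjusted p = 0.00214). The male value of 0.25 ± 0.15 did not pass the test (limma adjusted p = 0.214), with a 95% interval of -0.06 to 0.56.

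Cygb (gene ID 114886, chr11:116645595-116654504, minus strand) encodes cytoglobin, a globin of fibroblast-like cells that binds oxygen and breaks down nitric oxide. It stood at 5934, 5978 and 5824 normalised reads in F_APC and 2531, 2573 and 2436 in F_FIP. Male gonadal libraries held 6358, 6102 and 6052 in M_APC and 3323, 3677 and 3726 in M_FIP. APC libraries of the 2 sexes were close together and clear of all FIP libraries. Inguinal females held 3040.5, 2569 and 2828 in F_DPP4_neg and 2132, 2471 and 2382 in F_DPP4_pos. Inguinal males held 6172, 6118 and 5898 in M_DPP4_neg and 2234, 1962 and 2078 in M_DPP4_pos. M_DPP4_neg lay at the level of the APC groups, and the ratio of the highest to the lowest group mean, 2.95, was the smallest among the 7 members.

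Cygb fell from APC to FIP, with -1.23 ± 0.07 in females (limma adjusted p = 5.15e-13) and -0.79 ± 0.07 in males (limma adjusted p = 9.61e-10). From DPP4_neg to DPP4_pos the log2 fold change was -0.27 ± 0.07 in females (limma adjusted p = 0.00198), -0.21 without F_DPP4_neg replicate 1 and -0.45 with quantile normalization, and -1.54 ± 0.07 in males (limma adjusted p = 1.40e-15). As male minus female, these changes differed by -1.26 ± 0.10 in inguinal fat, where the male fall was the larger (limma adjusted p = 7.12e-10), and by 0.45 ± 0.10 in gonadal fat, where the female fall was the larger (limma adjusted p = 0.00341).

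Abcg1 (gene ID 11307, chr17:31057694-31117984, plus strand) encodes a transporter that exports cholesterol from cells. It was the sparsest member, with 22 to 53 reads in all in each gonadal group and 374 to 511 in each inguinal group. F_APC held 4.95, 19.0 and 23.5 and F_FIP 9.14, 6.82 and 2.99 normalised reads. M_APC held 19.3, 27.8 and 12.4 and M_FIP 12.3, 14.3 and 12.2. In both sexes APC and FIP overlapped. Inguinal values were 123, 112 and 118 in F_DPP4_neg and 120.0, 112 and 115 in F_DPP4_pos. In males they were 141, 166 and 146 in M_DPP4_neg and 179.7, 229.6 and 169 in M_DPP4_pos. Every inguinal library was above every gonadal library.

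Abcg1 was the 1 member with no call between DPP4_neg and DPP4_pos in either sex. The log2 fold change was -0.03 ± 0.36 in females (95% interval -0.77 to 0.72, limma adjusted p = 0.962) and 0.34 ± 0.36 in males (95% interval -0.41 to 1.09, limma adjusted p = 0.458). This SE pools all groups, the sparse gonadal ones among them, so it does not measure the inguinal scatter alone. Normalised reads (mean ± SD) were 116 ± 4.0 in F_DPP4_pos and 118 ± 5.47 in F_DPP4_neg. They were 193 ± 32.5 in M_DPP4_pos and 151 ± 13.6 in M_DPP4_neg. M_DPP4_pos lay above M_DPP4_neg with no overlap, and 54.0% of all genes had no overlap there. No alternative called the male value. Between APC and FIP the log2 fold change was -1.07 ± 0.36 in females (limma adjusted p = 0.0207) and -0.52 ± 0.36 in males (limma adjusted p = 0.284). The female value was -1.70 without F_APC replicate 1, -0.68 without F_APC replicate 3 and -0.68 without F_FIP replicate 3. Its call was lost with quantile normalization (adjusted p = 0.0568), with the 2 groups fitted alone (0.196), and without F_APC replicate 2 (0.115), F_APC replicate 3 (0.172) or F_FIP replicate 3 (0.165).

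Levels of different genes were set side by side per kilobase of annotated exon, joined over all GENCODE transcripts of a gene. That length can exceed the length of the RNA present, so the order of genes below depends on it. On that scale M_DPP4_neg held a mean of 3018 normalised reads per kilobase of F3, 2601 of Cygb, 2123 of Gdf10, 1585 of Mgp, 617 of Clec11a, 288 of Fmo2 and 20.7 of Abcg1. F3 was thus first in that group and Abcg1 last. In F_DPP4_pos Cygb led with 999 per kilobase, against 202 for Gdf10 and 197 for F3. In F_APC Mgp led with 2874, followed by Cygb with 2536 and F3 with 1028.

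Set side by side, the 6 members other than Abcg1 fell from DPP4_neg to DPP4_pos in both sexes, while from APC to FIP the directions were mixed in males. In gonadal females all 7 members were called lower in FIP, where 18.1% of the 14517 genes tested were called lower and 21.3% higher. Of those 7 calls, the ones of Gdf10 and Abcg1 did not hold under the alternatives given above. In males F3, Gdf10 and Cygb were called lower in FIP (background 18%) and Mgp and Clec11a higher (background 18.9%), with Clec11a subject to the alternatives above. In inguinal fat 6 of 7 were called lower in DPP4_pos in females (background 27.1% lower, 22.6% higher) and the same 6 in males (background 25.3% lower, 25.2% higher), Abcg1 being the other member in both. The median log2 fold change of the 7 members was -0.77 in females and -0.52 in males for FIP against APC, and -1.56 and -1.98 for DPP4_pos against DPP4_neg. The median of all genes tested lay between -0.04 and 0.00 in these 4 comparisons.

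Without F_DPP4_neg replicate 1, the 6 members called lower in female DPP4_pos were still called lower. The values were -1.68 for F3, -2.38 for Clec11a, -1.60 for Fmo2, -2.07 for Mgp, -2.06 for Gdf10 and -0.21 for Cygb. That of Abcg1, not called in either case, turned from -0.03 to 0.0065.

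The population change differed between the sexes for 4 members in gonadal fat, where 10.8% of genes tested differed. These were Mgp and Clec11a, given above, and Fmo2 (0.86 ± 0.21 as male minus female, limma adjusted p = 0.0095) and Cygb. F3 was not among them (-0.17 ± 0.12, 95% interval -0.41 to 0.07). In inguinal fat 5 members fell further in males (background 12.6% in that direction), among them Fmo2, with -1.27 ± 0.21 (limma adjusted p = 6.34e-05), Mgp, with -1.21 ± 0.25 (limma adjusted p = 0.000557) and Cygb. For F3 the difference of -0.39 ± 0.12 (limma adjusted p = 0.0146) was lost without F_DPP4_neg replicate 1 (adjusted p = 0.0514) and with the 4 groups fitted alone (0.0584). For Clec11a the difference of -0.60 ± 0.19 (limma adjusted p = 0.0167) was lost without F_DPP4_pos replicate 3 (adjusted p = 0.0658) and without M_DPP4_pos replicate 1 (0.0502). Without F_DPP4_neg replicate 1 the inguinal sex difference was -1.19 for Fmo2, -1.08 for Mgp, -1.32 for Cygb, -0.51 for Clec11a (adjusted p = 0.0492) and -0.26 for F3.

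**Figure D2:**
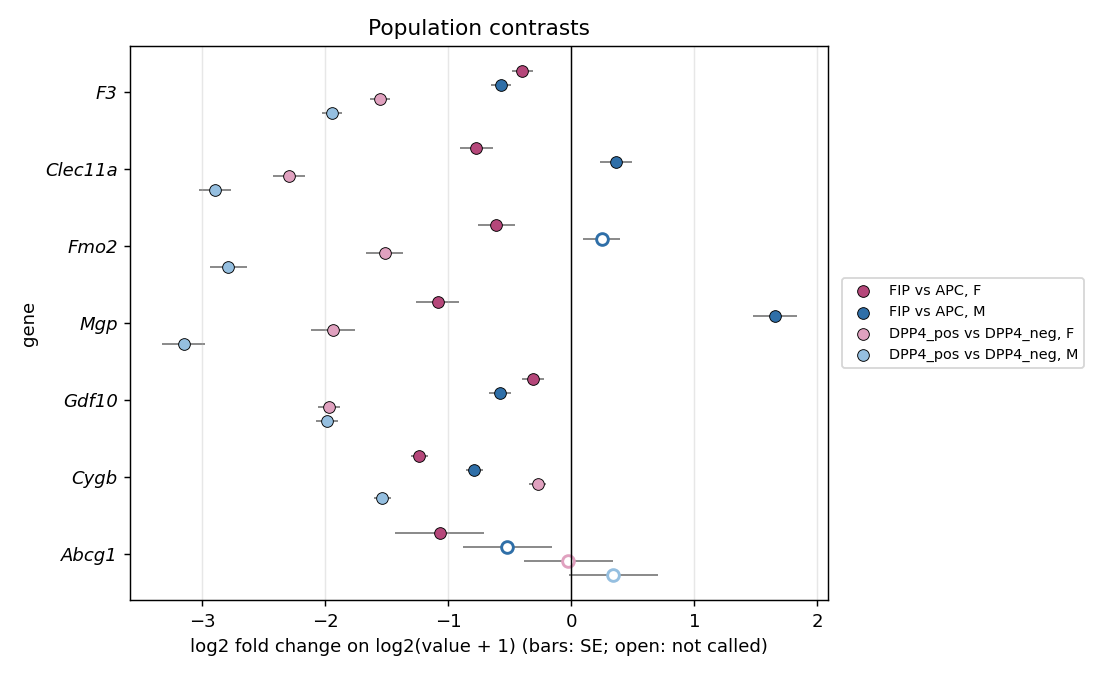
Log2 fold change (log2 of value plus 1) of each member in the 4 comparisons of populations; points are estimates, bars are SE, and open points did not pass an adjusted p of 0.05. The 6 members other than Abcg1 lie left of 0 in both inguinal comparisons, and Mgp lies on opposite sides of 0 in the female and male gonadal comparisons.

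F3 and Gdf10 were the 2 members higher in males in all 4 populations. The male excess of F3 as a log2 fold change was 0.87 ± 0.08 in APC, 0.69 ± 0.08 in FIP, 2.38 ± 0.08 in DPP4_neg and 1.99 ± 0.08 in DPP4_pos. The limma adjusted p was 5.35e-09 in APC, 2.95e-07 in FIP, 2.57e-17 in DPP4_neg and 1.16e-15 in DPP4_pos. For Gdf10 the male excess was 1.16 ± 0.09 in APC, 0.89 in FIP, 1.43 in DPP4_neg and 1.41 in DPP4_pos as log2 fold changes, all called. Each of the other members changed sides or was not called in at least 1 population.

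In APC, 3 members were called higher in males (F3, Gdf10 and Fmo2 at 0.78 ± 0.15) against a background of 22.4%, and 2 lower (background 22.1%). The lower ones were Clec11a (-2.24 ± 0.13, limma adjusted p = 7.00e-13) and Mgp (-2.01 ± 0.18, limma adjusted p = 1.01e-09). Cygb differed by 0.06 with a 95% interval of -0.08 to 0.20 there. In FIP, 6 members were called higher in males (background 18.2%) and Clec11a lower (-1.11 ± 0.13, background 19%). Mgp, lower in males in APC, was higher in males in FIP (0.73 ± 0.18, limma adjusted p = 0.00169), and Fmo2 had the largest of the male excesses in FIP (1.64 ± 0.15). The male excess of Abcg1 in FIP (1.03 ± 0.36, limma adjusted p = 0.0275), between groups of 44 and 22 reads, was not called by edgeR's quasi-likelihood test (adjusted p = 0.0656). It was also lost with no filter (0.0514), no trend (0.0515) and the groups alone (0.0501), and without F_FIP replicate 3 (0.64, 0.201), M_FIP replicate 1 (0.0529), M_FIP replicate 2 (0.0815) or M_FIP replicate 3 (0.0523).

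In DPP4_neg, 6 of 7 members were called higher in males, against 27.1% of genes tested called higher and 30.3% called lower. Clec11a rose by 1.86 ± 0.13 (limma adjusted p = 1.23e-11), Mgp by 1.16 ± 0.18 (limma adjusted p = 4.14e-06) and Cygb by 1.11 ± 0.07 (limma adjusted p = 1.20e-12). Without F_DPP4_neg replicate 1 the value of F3 was 2.25, of Clec11a 1.78, of Mgp 1.03, of Gdf10 1.34, of Cygb 1.17 and of Abcg1 0.38, which was not called with or without it. The value of Fmo2 (0.40 ± 0.15, limma adjusted p = 0.0273) lost its call with quantile normalization (0.23, adjusted p = 0.189), with no trend (0.0568) and without F_DPP4_neg replicate 1 (0.32, 0.114), M_DPP4_neg replicate 2 (0.101) or M_DPP4_neg replicate 3 (0.0928). The epithelial markers summed to 4196 to 10130.3 in F_DPP4_neg and 11.1 to 26.6 in M_DPP4_neg, and their part in the sex difference was not tested.

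In DPP4_pos, F3, Clec11a (1.26 ± 0.13, limma adjusted p = 1.62e-08) and Gdf10 were called higher in males (background 27.1%) and Fmo2 lower (-0.87 ± 0.15, limma adjusted p = 2.96e-05, background 25.5%). Mgp differed by -0.06 (95% interval -0.42 to 0.31). Cygb at -0.15 ± 0.07 was not called (limma adjusted p = 0.065) but passed with TMM-scaled values (0.0348), quantile normalization (0.000327) and edgeR (0.0447), and without F_DPP4_pos replicate 1 (0.0173) or M_DPP4_pos replicate 1 (0.0326). Abcg1 at 0.72 ± 0.36 (limma adjusted p = 0.0993), where the sexes did not overlap, passed in edgeR (adjusted p = 0.00221) and DESeq2 (0.000113), with a pseudocount of 5 (0.0327) and with the groups alone (0.00157).

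Markers of other cell types and of interstitial progenitors also differed between the sexes. Of 10 interstitial progenitor markers, Dpp4 among them, 8 were called lower in males in APC (median log2 fold change -1.56). In FIP 4 were lower and 1 higher in males. The 10 summed to 8939 to 11125 in F_APC and 2807 to 3049 in M_APC. In FIP the sums were 71585 to 78168 and 46175 to 50638, females first. In DPP4_neg they were 10347 to 31584 and 3941 to 4186, and in DPP4_pos 121218 to 142961 and 123590 to 141062. In FIP, 8 of 8 adipocyte markers were called higher in males (summed level 207 to 309 normalised reads in F_FIP and 718 to 759 in M_FIP), as were 9 of 11 macrophage markers (168 to 224 and 374 to 554, median log2 fold change 1.85). Also higher in male FIP were 7 of 10 endothelial markers (5677 to 6271 and 6388 to 7447) and 6 of 10 mural markers. Most of the endothelial sum in FIP was 1 gene, Tek, with means of 4876 in F_FIP and 4156 in M_FIP. In APC, 7 of 10 mesothelial markers were lower in males (4376 to 4523 in F_APC and 2788 to 3099 in M_APC), and 4 of 8 adipocyte markers were higher and 1 lower. In DPP4_neg, 9 of 9 epithelial and 7 of 10 endothelial markers were lower in males (endothelial sum 1894 to 2745 in F_DPP4_neg and 1018 to 1211 in M_DPP4_neg), and 4 of 10 mesothelial markers were, with Muc16 at 0 in M_DPP4_neg. In DPP4_pos, 8 of 8 adipocyte markers were higher in males (67.7 to 267 in F_DPP4_pos and 326 to 553 in M_DPP4_pos). There 6 of 9 epithelial markers were lower in males and 1 higher (227 to 401 and 98.1 to 122), with Krt14 and Krt17 at 0 in M_DPP4_pos. The part of these in the sex differences of the members was not tested.

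**Figure D3:**
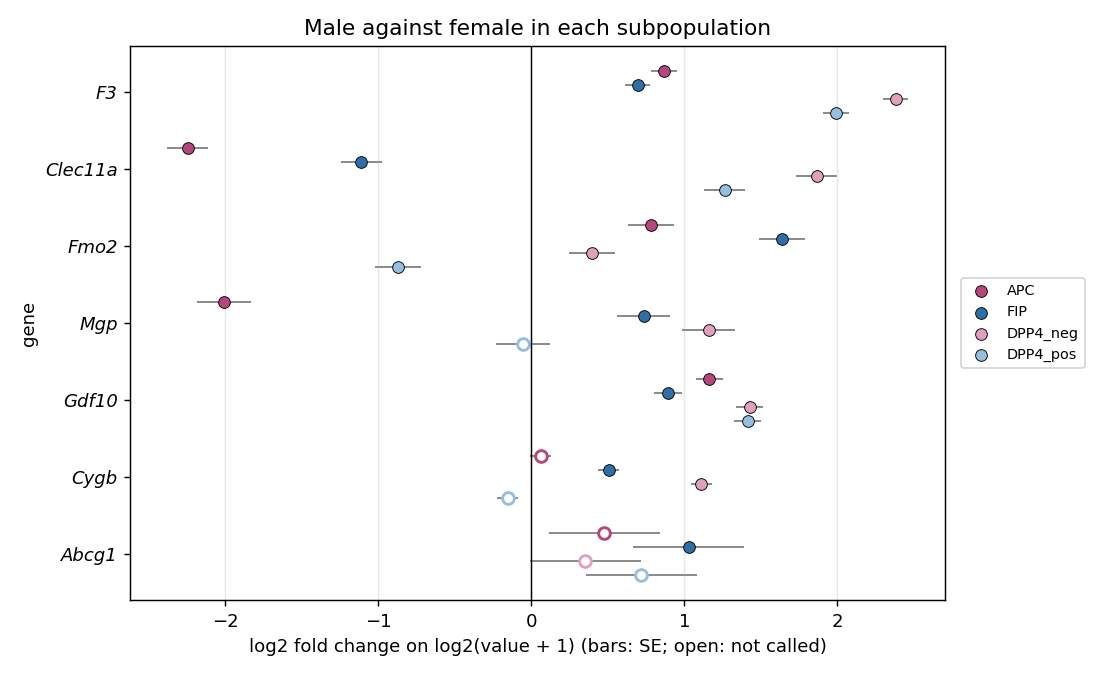
Log2 fold change (log2 of value plus 1) of each member, male against female, in the 4 populations; points are estimates, bars are SE, and open points did not pass an adjusted p of 0.05. F3 and Gdf10 lie right of 0 in every population, whereas Clec11a is left of 0 in APC and FIP and right of 0 in DPP4_neg and DPP4_pos.

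Gonadal and inguinal cells were compared as APC with DPP4_neg and FIP with DPP4_pos. These pairs are not the same population in 2 depots, since they were sorted under different names, so depot and population cannot be told apart in them. Abcg1 was lower in gonadal cells in all 4 such comparisons. The values were -3.05 ± 0.36 in females (limma adjusted p = 8.39e-08) and -2.93 ± 0.36 in males (limma adjusted p = 1.15e-07) for APC against DPP4_neg. For FIP against DPP4_pos they were -4.10 ± 0.36 (limma adjusted p = 9.51e-10) and -3.79 ± 0.36 (limma adjusted p = 1.41e-09). Gdf10 was called in the FIP comparisons alone, higher in FIP in both sexes.

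Against DPP4_neg, female APC had 3 members called higher (background 26.8%) and 2 lower (background 32.2%). The higher ones were Mgp (2.06 ± 0.18, 1.93 without F_DPP4_neg replicate 1), Cygb (1.07 ± 0.07, 1.13 without it) and F3 (0.83 ± 0.08, 0.70 without it). Fmo2 was lower (-0.71 ± 0.15, limma adjusted p = 0.000286), as was Abcg1. In males 4 members were called lower (background 33% lower, 33.1% higher). Clec11a was lower by a log2 fold change of -3.98 ± 0.13 (limma adjusted p = 1.99e-18), at 107 to 128 normalised reads in M_APC and 1736 to 2022 in M_DPP4_neg. Mgp (-1.10 ± 0.18) and F3 (-0.68 ± 0.08, limma adjusted p = 8.71e-08) had the opposite sign to females, and the male F3 value was -0.20 with quantile normalization. Differences between the sexes were called for 4 members (background 42.9%), Clec11a (-4.11 ± 0.19, limma adjusted p = 2.01e-14), Mgp (-3.16 ± 0.25), F3 (-1.51 ± 0.12) and Cygb (-1.05 ± 0.10, -0.69 with quantile normalization). Without F_DPP4_neg replicate 1 the female values of Fmo2, Abcg1, Clec11a and Gdf10 were -0.79, -3.02, 0.04 and 0.07, the first 2 of them called. The sex differences without it were -4.02 for Clec11a, -3.03 for Mgp, -1.39 for F3 and -1.11 for Cygb, all called. Gdf10 was not called in females (95% interval -0.02 to 0.34) or males (95% interval -0.28 to 0.08), but with quantile normalization the male value turned from -0.10 to 0.27 (adjusted p = 0.0111). Quantile normalization also moved Cygb in males from 0.03 to 0.48 (adjusted p = 6.70e-07). In the male comparison Fmo2 at -0.32 ± 0.15 (limma adjusted p = 0.0658) passed with the groups alone (0.0328), in DESeq2 (0.0497) and without M_DPP4_neg replicate 1 (0.0201).

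Against DPP4_pos, female FIP had 4 members called higher (background 22.1%) and Abcg1 lower (background 22.6%). Mgp was higher by 2.92 ± 0.18 (limma adjusted p = 7.54e-13), F3 by 1.99 ± 0.08 (limma adjusted p = 7.28e-16), Gdf10 by 1.83 ± 0.09 and Clec11a by 1.65 ± 0.13. Cygb at 0.11 was not called but passed with quantile normalization (0.27, adjusted p = 0.00173). In males 5 were higher (background 32.6%) and 2 lower (background 32.4%). Mgp again rose most, by 3.71 ± 0.18 (limma adjusted p = 2.16e-15), followed by Fmo2 at 2.72 ± 0.15 (limma adjusted p = 4.89e-14), while Clec11a was lower in FIP (-0.72 ± 0.13, limma adjusted p = 3.71e-05). With quantile normalization the male value of F3 moved from 0.69 to 1.11 and that of Cygb from 0.77 to 1.19. The sexes differed in this comparison for 6 members (background 34.9%), with values from -2.37 for Clec11a to 2.51 for Fmo2. The difference of Mgp (0.79 ± 0.25, limma adjusted p = 0.0155) was lost without F_DPP4_pos replicate 2 (adjusted p = 0.051). That of Gdf10 (-0.52 ± 0.13, limma adjusted p = 0.00213) was lost with quantile normalization (-0.29, adjusted p = 0.0917).

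Markers of other cell types separated the depots as well. The 10 interstitial progenitor markers summed to 71585 to 78168 in F_FIP against 121218 to 142961 in F_DPP4_pos. In males the sums were 46175 to 50638 in FIP and 123590 to 141062 in DPP4_pos. In APC against DPP4_neg they were 8939 to 11125 and 10347 to 31584 in females, and 2807 to 3049 and 3941 to 4186 in males. In males 10 of 10 mesothelial markers were called higher in FIP than in DPP4_pos (median log2 fold change 4.19, summed level 3808 to 4114 and 51.8 to 103 normalised reads) and 9 in APC than in DPP4_neg (2788 to 3099 and 50.6 to 91.3). In females 6 were higher and 3 lower in FIP than in DPP4_pos (3794 to 4221 and 459 to 683), with Bnc1 at 0 in F_DPP4_pos. In female APC against DPP4_neg 7 were higher and 3 lower, while their sum was lower in APC (4376 to 4523 and 6852 to 16552). The mesothelial list holds keratin genes. One of them, Krt18, had a mean of 2214 in F_DPP4_neg, where Epcam was 803 to 1913, against 67.1 in F_DPP4_pos. How far the sum in F_DPP4_neg came from epithelial rather than mesothelial cells was not tested. Of 10 endothelial markers, 9 were higher in FIP in males (6388 to 7447 and 4243 to 4552 in DPP4_pos) and 7 in females, where the sum was lower in FIP (5677 to 6271 and 6420.0 to 7391). In APC against DPP4_neg 10 of these were higher in males and 9 in females. Most of the endothelial sum in DPP4_pos was again Tek, with means of 4920 in F_DPP4_pos and 3955 in M_DPP4_pos. Of 10 mural markers 8 were higher and 2 lower in FIP in males, and 6 and 3 in females. All 8 adipocyte markers were higher in APC than in DPP4_neg in both sexes, and 5 in females and 3 in males in FIP than in DPP4_pos. Of 11 macrophage markers 6 were higher and 1 lower in male FIP, while 2 were higher and 8 lower in female FIP. All 9 epithelial markers were lower in female APC than in F_DPP4_neg. The part of these in the depot differences of the members was not tested.

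**Figure D4:**
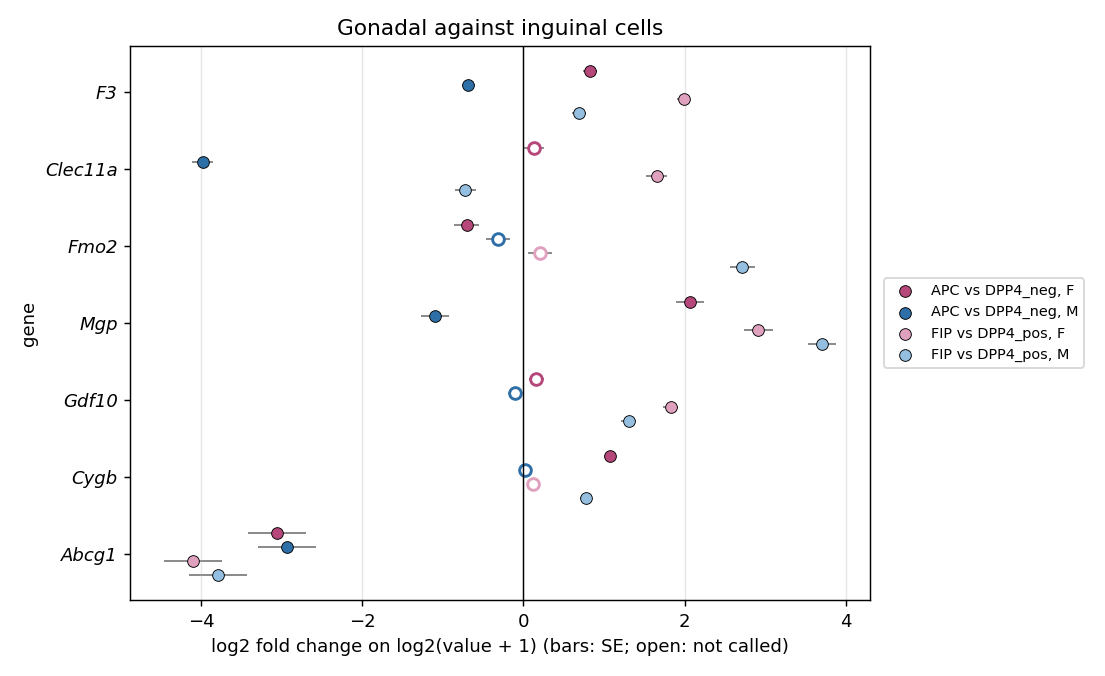
Log2 fold change (log2 of value plus 1) of each member, gonadal against inguinal cells, for APC against DPP4_neg and FIP against DPP4_pos in each sex; points are estimates, bars are SE, and open points did not pass an adjusted p of 0.05. Abcg1 lies left of 0 in all 4 comparisons, and F3, Clec11a and Mgp lie on both sides.

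The 2 population comparisons of a sex were also set against each other, as the FIP against APC change minus the DPP4_pos against DPP4_neg change. In females 6 members differed (background 34.3%), and in males the same 6 (background 27.5%). F3 fell less in the gonadal than in the inguinal comparison, by 1.16 ± 0.12 in females (limma adjusted p = 4.21e-08) and 1.37 ± 0.12 in males (limma adjusted p = 2.01e-09). Cygb had opposite signs, -0.96 ± 0.10 in females, where its gonadal fall was the larger (limma adjusted p = 4.28e-08), and 0.75 ± 0.10 in males (limma adjusted p = 1.81e-06). Without F_DPP4_neg replicate 1 the female differences were 1.28 for F3, 1.61 for Clec11a, 0.99 for Fmo2, 0.98 for Mgp, 1.75 for Gdf10 and -1.02 for Cygb, all 6 called. The widest gap was that of Mgp in males, 4.81 ± 0.25 (limma adjusted p = 3.07e-13). Abcg1 at -1.04 ± 0.51 in females passed in DESeq2 (adjusted p = 0.0303) and without F_APC replicate 1 (0.00194), and at -0.86 ± 0.51 in males in DESeq2 (0.0391).

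Over the 24 libraries, log2 values of F3 and Gdf10 had a Pearson r of 0.957. The r of F3 was 0.747 with Cygb, 0.600 with Mgp, 0.592 with Fmo2, 0.497 with Clec11a and -0.193 with Abcg1. These are descriptions over libraries that fall into 8 groups and share depot, sex and sort, and carry no test. The lowest r among the members was -0.642, between Mgp and Abcg1. With Dpp4, which the inguinal sort used, r was -0.903 for Cygb, -0.841 for Gdf10, -0.789 for F3, -0.739 for Fmo2, -0.493 for Mgp, -0.434 for Clec11a and 0.0867 for Abcg1. Thus 6 members had a negative r with Dpp4, and that of Abcg1 was near 0.

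**Figure D5:**
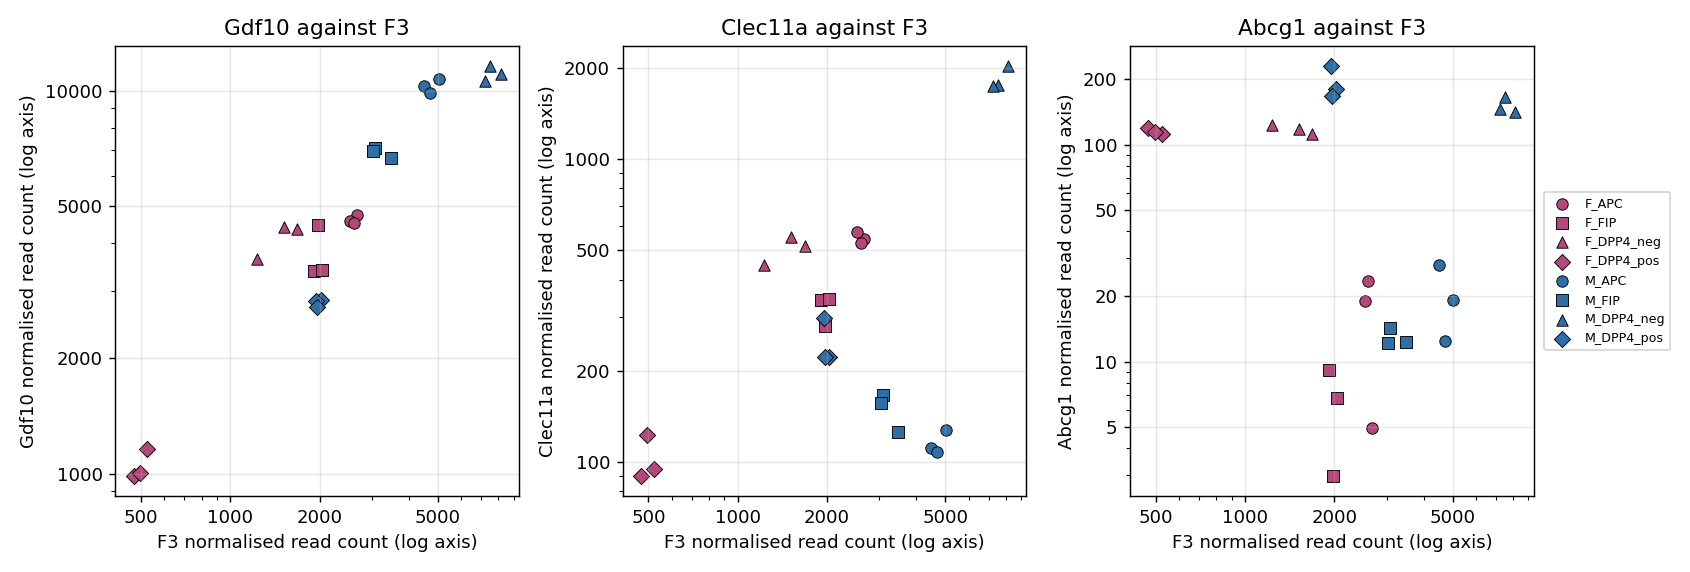
Gdf10, Clec11a and Abcg1 against F3 in the 24 libraries (normalised read count, log axes), with 1 point per library coloured by sex. Gdf10 follows F3 closely (r = 0.957), whereas the Abcg1 points fall into separate inguinal and gonadal sets.

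With the members themselves left out, among 8896 candidate genes with a mean of at least 100 normalised reads, the patterns most like F3 over the 24 libraries, by Pearson r of log2 values, were those of Itpk1 (0.955), Fmod (0.955), Lmo1 (0.948), Elmod3 (0.941) and Npas2 (0.938). The nearest to Gdf10 were Mamld1 (0.964) and Mid2 (0.960), and to Clec11a Spock2 (0.944) and Pltp (0.927). For Fmo2 they were Frmd6 (0.929) and Bgn (0.919), and for Cygb Armh4 (0.969) and Steap4 (0.967). Abcg1 was most like Irx2 (0.952) and Ets1 (0.951). Fmod encodes fibromodulin and Bgn biglycan, both small leucine-rich proteoglycans of the matrix. Likeness over libraries in 8 groups was not taken further.

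Further genes tied to CD142-positive stromal cells (Vit, Cpe, Meox2 and Fgf12 of a list of 6, Spink2 and Rtp3 being too low to test) were counted beside the members. From DPP4_neg to DPP4_pos 3 of these 4 fell in females and 4 of 4 in males. Vit, which encodes the matrix protein vitrin, changed by -1.80 and -1.81, Cpe by -1.18 and -2.42 and Meox2 by -1.49 and -1.79 in females and males. The list median was -1.33 in females and -1.98 in males. In gonadal fat Vit rose from APC to FIP in females (0.59 ± 0.10, limma adjusted p = 4.52e-05), opposite to F3, and in males limma called 0 of the 4 (1 at an unadjusted p under 0.05, 0 by edgeR and 0 by DESeq2).

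Of 19 genes of the tissue factor pathway 13 were tested, and F7, which encodes the ligand of F3, was too low to test. From APC to FIP 8 fell in females, and 1 fell and 2 rose in males. From DPP4_neg to DPP4_pos 7 fell and 3 rose in females, and 4 fell and 5 rose in males. Tfpi2, which encodes a protease inhibitor related to the tissue factor pathway inhibitor, fell with F3 in all 4 comparisons (-0.49 and -0.30 gonadal, -0.57 and -1.48 inguinal, females first). F2r, the thrombin receptor PAR1, changed by -3.31 and -1.38 in the inguinal comparison. Procr, the receptor of protein C, ran against F3 there, with 1.66 in females and 2.11 in males.

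Relatives and partners of the other members were counted in the same way. Of 13 GDF10 relatives, receptors and SMADs, all tested, 7 rose and 3 fell from DPP4_neg to DPP4_pos in females and 7 rose and 1 fell in males. Tgfbr2, a TGF-beta receptor, rose by 1.16 and 1.75, opposite to Gdf10, and also rose from APC to FIP (1.49 and 1.21). Of 6 CLEC11A-related integrins and lectins tested, 3 rose and 1 fell in females and 2 rose and 1 fell in males, and Itga11, the integrin chain that binds CLEC11A, rose by 1.65 and 1.55 while Clec11a fell. Of 9 genes of vitamin K carboxylation and mineralisation tested, 4 fell in females and 5 fell in males. Of 11 sterol export genes tested, 3 rose and 4 fell in females and 2 rose and 6 fell in males, led by Apoe, which encodes apolipoprotein E (-2.16 and -4.58). Fmo1, a relative of Fmo2, changed by -0.63 and -0.96. The share of all genes called in each of these comparisons is given above with the members.

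Markers of other cell types moved in the same comparisons as the members. The 10 mural cell markers summed to 2476 to 2947 normalised reads in F_APC against 960.4 to 993 in F_FIP, and to 3542 to 4254 in M_APC against 2039 to 2278 in M_FIP. In inguinal cells their sum was 2160.2 to 2726 in F_DPP4_neg against 1391 to 1812 in F_DPP4_pos, and 2044 to 2951 against 640.2 to 807 in males, where Higd1b was at 0 in M_DPP4_pos. Of the 10, 9 fell from APC to FIP in females and 6 in males. From DPP4_neg to DPP4_pos 6 fell and 1 rose in females, and 7 fell in males. Rgs5, a defining pericyte gene, stood at 9.91 to 166 over all libraries. The 11 macrophage markers summed to 676 to 1365 in F_DPP4_neg against 268 to 353 in F_DPP4_pos, and all 11 fell there, against 6 in males (546 to 879 in M_DPP4_neg and 282 to 344 in M_DPP4_pos). From APC to FIP 10 of 11 fell in females (354 to 701 and 168 to 224, median log2 fold change -1.41) and 2 in males (575 to 763 and 374 to 554). Most of the 10 committed preadipocyte markers also fell in these comparisons. From APC to FIP 9 fell in females, and 8 fell and 1 rose in males. From DPP4_neg to DPP4_pos 9 fell in females and 10 in males. The 10 interstitial progenitor markers, Dpp4 among them, rose in all 4 comparisons. The part of any of these in the values of F3 and the other members was not tested.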

How the data were processed

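PDGFRb-positive cells of 8 groups, 3 libraries each, were sequenced from 0.5 ug of RNA by NEBNext Ultra II, per the labels. The submitters' processing notes name DESeq2 1.6.3, featureCounts 1.4.6, HISAT2 2.0.1 and Trim Galore 0.4.1, and the build as GRCm38 or mm10; the strand setting was not given in the sources used here, so antisense reads cannot be told apart. The deposited values are a normalized signal per gene, obtained by the authors when they scaled each library's read counts with its own size factor. Undoing that scaling gave whole reads for 100% of values within 0.01 read.

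Values were tested as log2(value + 1) with limma 3.58.1 in R 4.3.3 (1 mean per group over 24 libraries, mean-variance trend), which understates the change of low genes. Genes that reached 10 in 3 or more libraries were tested, and p-values were adjusted by Benjamini-Hochberg over all 14517 genes of each of 18 comparisons, 12 between groups and 6 between such differences. A gene was called at an adjusted p under 0.05. Errors are SD for levels and SE for fold changes. Comparisons that use the same group share its libraries. Replicates differed by more than sampling noise (chi-square per degree of freedom 1.61 to 26.3 over 24 pairs), so none was counted as a repeat of another.

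The alternatives were pseudocounts of 0.5 and 5, no filter or a minimum of 50, quantile and TMM scaling, no trend, the groups of a comparison alone, a replicate block, each library left out, and edgeR 4.0.16 and DESeq2 1.42.0 on the recovered reads. Over the 18 comparisons limma called 1566 to 9599 genes, edgeR 1496 to 9522 and DESeq2 1615 to 9235. The limma script was tested on simulated data. Genes without a symbol, at most 0.0765% of a library's reads, were kept. Named genes were the 7 members, up to 3 genes per list called the same way in both sexes of a depot with the largest mean change, and the genes most like each member (5 for F3, 2 for others, mean at least 100, members, predicted and clone-named genes left out). The genes most like Mgp are not reported here. The members and lists were chosen with earlier results of these data known. F7, Fgf12, Spink2, Rtp3, Epcam, Ptprc, Pdgfrb, Pdgfra, Rgs5, Muc16, Bnc1, Krt14 and Krt17 were named outside that rule. In DPP4_pos against DPP4_neg in females all 3 same-numbered pairs had deviations correlated over 0.1 (0.129, 0.201 and 0.105), so the numbers may pair these libraries. The replicate block gave 7166 called genes there against 7216. In the other 11 comparisons between groups not all 3 pairs were over 0.1, which cannot exclude pairing. Counts of Schwann cell and further marker lists are given in the closing section. Gene positions and promoters are RefSeq on GRCm38.p6, with a promoter matched for 4 of 7 members. Exon lengths join all exons of a gene in GENCODE.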

Additional observations from a re-analysis of the deposited data

Results flagged for a closer look

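Differences of log2 fold changes that passed a limma adjusted p of 0.05 by a test of the difference itself are listed here with their values. In the main fit the size or the sign of these changes differed between the sexes or between the gonadal and inguinal comparisons, which used different sorts. Some calls were lost under alternatives given above. These were the sex differences of F3 and Clec11a in DPP4_pos against DPP4_neg, and of Mgp and Gdf10 in FIP against DPP4_pos. The causes of the differences were not tested.

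As male minus female, the change from APC to FIP differed by 1.14 for Clec11a, 2.74 for Mgp, 0.86 for Fmo2 and 0.45 for Cygb. The change from DPP4_neg to DPP4_pos differed between the sexes by -0.39 for F3, -0.60 for Clec11a, -1.21 for Mgp, -1.27 for Fmo2 and -1.26 for Cygb. For APC against DPP4_neg the sexes differed by -1.51 for F3, -4.11 for Clec11a, -3.16 for Mgp and -1.05 for Cygb. For FIP against DPP4_pos they differed by -1.30 for F3, -0.52 for Gdf10, -2.37 for Clec11a, 0.79 for Mgp, 2.51 for Fmo2 and 0.66 for Cygb. As the gonadal minus the inguinal population change, females gave 1.16 for F3, 1.66 for Gdf10, 1.52 for Clec11a, 0.85 for Mgp, 0.91 for Fmo2 and -0.96 for Cygb, and males gave 1.37 for F3, 1.41 for Gdf10, 3.26 for Clec11a, 4.81 for Mgp, 3.04 for Fmo2 and 0.75 for Cygb. The largest of these in size was that of Mgp between depots in males.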

How the results depend on the processing

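The number of members called in each of the 18 comparisons stayed within 1.5 times its reported value under 11 alternatives and with each of 24 libraries left out. Of 126 member results 98 were called, while limma called 1566 to 9599 of the 14517 genes tested per comparison. Of the 98, 9 lost the call under some alternative, as given beside them, and none changed sign. A further 10 uncalled results passed under some alternative, 1 of them with the sign turned. Of these, the sex difference of Gdf10 in FIP against APC (-0.27) was -0.40 and that of Fmo2 in APC against DPP4_neg (0.39) was 0.60 with quantile normalization.

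The sign turned for 8 uncalled results. With quantile normalization Abcg1 was 0.18 in female DPP4_pos against DPP4_neg, Gdf10 0.27 in male APC against DPP4_neg, and Gdf10 0.012 in the sex difference of DPP4_pos against DPP4_neg. In the sex difference of APC against DPP4_neg it gave 0.13 for Gdf10 and -0.13 for Abcg1. With 1 library left out, Abcg1 ranged from -0.060 to 0.0065 in female DPP4_pos against DPP4_neg and from -0.16 to 0.87 in male against female APC, and Mgp from -0.18 to 0.071 in male against female DPP4_pos. The sex differences ranged from -0.061 to 0.075 for Gdf10 in DPP4_pos against DPP4_neg, and for Abcg1 from -0.51 to 0.51 in APC against DPP4_neg and from -0.078 to 0.60 in FIP against DPP4_pos. The cause was not tested.

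Quantile normalization moved the median log2 fold change of all genes by 0.13 in female APC against DPP4_neg and by -0.12 in the female depot difference, and the share of calls that were higher from 45.4% to 56.6% and from 60.1% to 48.0%. Same-numbered libraries of the groups compared had correlations of their deviations from -0.173 to 0.201, with 4 of 36 over 0.1, and 27 of 84 matched best with their own number. The labels do not say whether the numbers pair libraries, and low correlations cannot settle it. A fit with the replicate block changed no member's call and gave 1512 to 9557 called genes per comparison. Few reads limit Abcg1 in gonadal cells, and 3 libraries per group limit every comparison.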

Other observations

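Enzymes and receptors around nitric oxide, which cytoglobin breaks down, moved apart from each other. Gucy1b1, a subunit of the nitric oxide receptor guanylate cyclase, changed from APC to FIP by -2.35 in females and -1.15 in males, and from DPP4_neg to DPP4_pos by -2.79 and -4.52, each with a limma adjusted p under 0.05. Gucy1a1, its partner subunit, changed by -3.81 and -4.53 in the inguinal comparison. Cyb5r3, a reductase that can act on cytoglobin, rose where Cygb fell, with 0.74 and 1.69 from APC to FIP. Of 13 globin and nitric oxide genes tested, 3 rose and 6 fell from APC to FIP in females and 1 rose and 6 fell in males. From DPP4_neg to DPP4_pos 6 rose and 3 fell in females and 4 rose and 3 fell in males. Of 9 genes of the vitamin K list, 1 rose and 7 fell from APC to FIP in females, when Mgp fell, and 1 rose and 3 fell in males, when Mgp rose. Of the 13 GDF10-related genes, 9 rose and 2 fell from APC to FIP in females and 6 rose and 3 fell in males. Of the 6 CLEC11A-related genes, 3 rose and 1 fell in females and 4 rose and 1 fell in males. Of the 11 sterol export genes, 1 rose and 5 fell in females and 3 fell in males, and of 3 other flavin monooxygenases 1 fell in females and 2 fell in males.

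Of the 8 adipocyte markers, 8 fell from APC to FIP in females and 7 fell in males, while from DPP4_neg to DPP4_pos 7 fell in females and 3 fell in males. Of the 10 mesothelial markers, 9 fell from APC to FIP in females and limma called 0 (0 at an unadjusted p under 0.05, 1 by edgeR and 1 by DESeq2) in males, while from DPP4_neg to DPP4_pos 5 fell in females and 1 rose and 1 fell in males. Of the 9 epithelial markers, 1 rose and 2 fell from APC to FIP in females and 1 rose in males, while from DPP4_neg to DPP4_pos 9 fell in females and 2 rose in males. Of the 10 endothelial markers, 1 rose and 7 fell from APC to FIP in females and 1 rose in males, while from DPP4_neg to DPP4_pos 2 rose and 7 fell in females and 2 rose and 1 fell in males. Of the 6 Schwann cell markers, 1 rose and 1 fell from APC to FIP in females and 2 fell in males, while from DPP4_neg to DPP4_pos 1 rose and 4 fell in females and 1 rose and 3 fell in males. Of the 6 flavin monooxygenases listed beside Fmo2, 3 were tested, and from DPP4_neg to DPP4_pos 1 rose and 1 fell in females and 1 rose and 1 fell in males.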
